A study of Mus musculus with 16 samples.

Results

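The genes described here are 8 genes of the club and other secretory cells of the airway: Scgb1a1, Scgb3a1, Scgb3a2, Cyp2f2, Bpifa1, Reg3g, Sec14l3 and Cxcl15. They were picked by symbol among 25054 gene entries. The rule uses no measured value, but earlier results of these data were known when the genes were picked. RNA of lung and liver was sequenced from newborn C57BL/6J pups of Man1a2 heterozygous parents as 16 pooled libraries. Man1a2 encodes an alpha-mannosidase that trims N-linked glycans. Both parents received N-acetyl cysteine (NAC, 1 g/kg body weight), an antioxidant, or water as placebo, from a week before breeding until delivery. The 4 pup groups were live wild-type (WT), live Man1a2 heterozygous, dead heterozygous and dead Man1a2 null pups, where a dead pup is one that died within 24 h of birth. No null pup group was live, so the null genotype and death cannot be told apart. Tissue was taken upon death from dead pups and 24 h after birth from live pups. Death and age at harvest therefore cannot be told apart in any comparison of dead with live pups. RNA of 3 experiments was pooled into each library, and of 2 for dead heterozygous pups. Pooling leaves 1 library per group, treatment and tissue label, and p-values below measure only the spread between libraries across pup groups.

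Club cells are secretory cells of the conducting airways. They release secretoglobins, small proteins of the airway lining fluid, and metabolise inhaled chemicals through cytochrome P450 enzymes. They also give rise to ciliated cells, and they take part in airway defence together with other secretory cells.

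The tissue label went against the markers in 8 of the 16 libraries, so libraries were grouped by marker content and each is called by its label. Sftpc, the alveolar type 2 cell surfactant gene, was at 1000 CPM (counts per 1000000 counts) or more with Alb, the albumin gene of hepatocytes, under 1000 CPM in 7 libraries. These 7 are called lung-content. They carry the labels live WT NAC lung, live WT placebo liver, live heterozygous NAC lung, live heterozygous placebo liver, dead heterozygous placebo lung, dead heterozygous NAC liver and dead null placebo liver. In 8 libraries, called liver-content, Alb was at least 50000 CPM, and among these were both libraries of null pups given NAC. The remaining library, labelled dead null placebo lung, held 5553 CPM of Sftpc and 9280 CPM of Alb and is called mixed. Lung-content libraries held 7236906 to 11808840 counts, and liver-content libraries 14115814 to 16107764. Man1a2 itself read from 22.6 to 121 CPM over the 16 libraries and from 24.5 to 70.0 CPM in the 4 labelled null. These counts cover the whole gene, whereas the null allele lacks part of it, so they do not check the genotype labels. Exchanging treatment labels alone would leave each tissue label in place, so it would not put liver content under a lung label. Both null NAC libraries held liver content, which exchanging tissue labels within a treatment would not give. Whether treatment labels were exchanged as well as tissue labels was not tested. In both live pup groups the lung-content NAC library is labelled lung and its placebo partner liver, and in dead heterozygous pups the reverse holds.

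Taken by tissue label, the NAC and placebo libraries of a pup group never had the same content. All 8 genes were higher with NAC in 3 of the 8 labelled pairs (live WT lung, live heterozygous lung and dead heterozygous liver). In 4 pairs all 8 were lower with NAC, and in the remaining pair, dead null liver, 7 were lower and 1 was equal. In each pair the higher library was the one with lung or mixed content. No test was made of these pairs, and the values below compare libraries of 1 content.

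By position (GENCODE genes on GRCm38), Scgb1a1 lies on chr19:9083636-9087958, on the minus strand,. Scgb3a1 lies on chr11:49663610-49665118 and Sec14l3 on chr11:4064841-4077736, both on the plus strand. Cyp2f2 occupies chr7:27119909-27133660, and its exons overlap those of Gm15883 on the other strand. Reads of these overlapping exons can be divided only by strand, whose use in the counting is not given in the sources used here. Bpifa1 is at chr2:154142880-154149219, Reg3g at chr6:78466269-78468872 on the minus strand, and Cxcl15 at chr5:90794534-90803067, and none of these genes other than Cyp2f2 shares exon bases with another gene.

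Promoter sequence is shown for Cyp2f2, Sec14l3 and Reg3g, the 3 genes with the largest fitted differences between NAC and placebo among the 6 of the 8 genes whose promoters were searched in the RefSeq promoter set (GRCm38.p6). Scgb1a1 and Scgb3a2 were not searched. Each sequence reads 5′ to 3′ on the gene's own strand and ends before the first base that RefSeq or GENCODE places in the gene. Capitals mark matches on either strand to 5 motifs of factors known from lung epithelium or general promoters: the TATA box by TATAAA, forkhead box A factors by TGTTTNC, NKX2-1 by CTCAAG and by CACTTG, C/EBP factors by TTGCNNAA and AP-1 by TGANTCA.
Cyp2f2, chr7:27119705-27119908, plus strand: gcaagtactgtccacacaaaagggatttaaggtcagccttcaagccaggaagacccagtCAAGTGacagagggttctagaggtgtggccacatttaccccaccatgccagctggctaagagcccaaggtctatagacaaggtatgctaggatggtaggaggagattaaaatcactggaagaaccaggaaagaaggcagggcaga
Sec14l3, chr11:4064603-4064840, plus strand: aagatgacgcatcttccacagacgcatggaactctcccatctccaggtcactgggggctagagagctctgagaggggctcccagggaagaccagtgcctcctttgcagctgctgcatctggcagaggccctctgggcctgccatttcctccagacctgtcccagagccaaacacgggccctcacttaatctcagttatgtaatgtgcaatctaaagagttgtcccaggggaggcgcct
Reg3g, chr6:78468875-78469124, minus strand: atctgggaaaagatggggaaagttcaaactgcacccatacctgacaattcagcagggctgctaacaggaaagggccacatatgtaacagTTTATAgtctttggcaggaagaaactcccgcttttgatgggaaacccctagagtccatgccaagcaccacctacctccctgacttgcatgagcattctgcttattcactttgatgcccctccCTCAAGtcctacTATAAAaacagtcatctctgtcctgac
The Cyp2f2 stretch holds the NKX2-1 letters once, at position -191 from the RefSeq start, and the same letters occur in 19.4% of 32851 promoters over a window of 204 bases. In the Sec14l3 stretch of 238 bases none of the 5 motifs was matched. The Reg3g stretch has the TATA letters at positions -27 and -161 and the NKX2-1 letters at position -39. Over 250 bases, 12.4% of promoters hold the TATA letters and 22.6% the NKX2-1 letters.

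Compared per length in the 7 lung-content libraries, Scgb1a1 had the highest level, with a median of 4804 CPM per kb of exon. Scgb3a2 followed at 1102, then Cxcl15 at 524, Sec14l3 at 199, Cyp2f2 at 120, Scgb3a1 at 49.4, Reg3g at 6.48 and Bpifa1 at 0.220 CPM per kb. Scgb1a1 and Scgb3a2 did not overlap in range, and neither did Reg3g and Bpifa1. The ranges of the other neighbours overlapped. Within a library the upper gene was nevertheless the higher in 7 of 7 libraries for each pair of neighbours, other than Sec14l3 over Cyp2f2 and Cyp2f2 over Scgb3a1, each in 6 of 7.

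**Figure D1:**
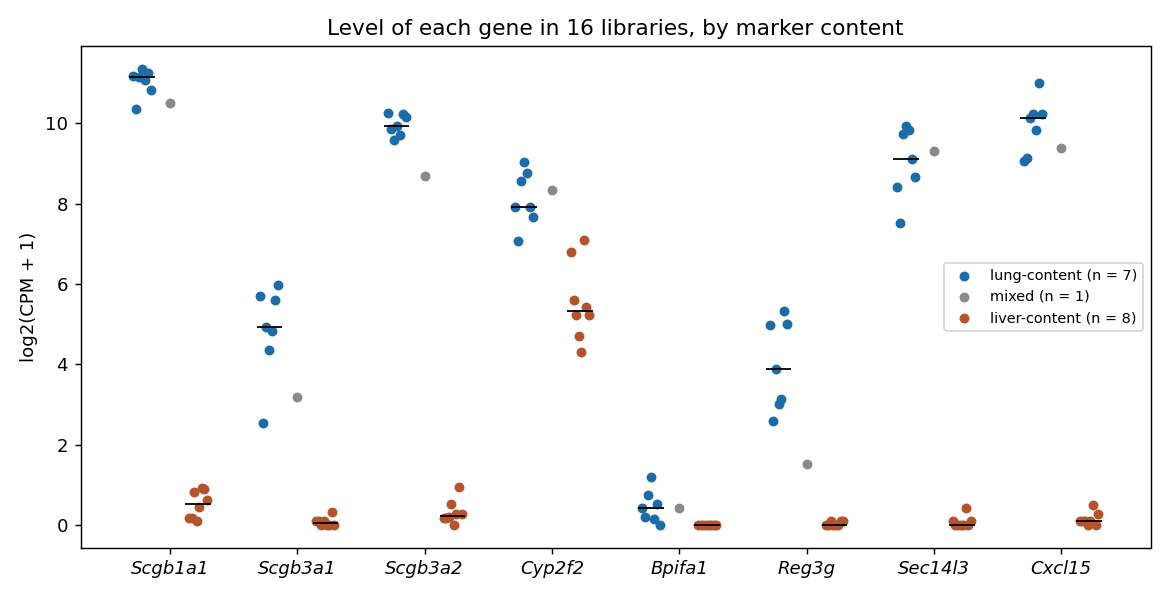
Level of the 8 genes in the 16 libraries, as log2(CPM + 1) with CPM per total library counts, where each point is 1 library and the short line is the median of a content group. All genes other than Cyp2f2 and Bpifa1 lay higher in every lung-content library than in any liver-content library, and the mixed library lay between the groups or within the lung-content range.

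In 6 of the 8 genes every lung-content library lay above every liver-content library, the exceptions being Cyp2f2 and Bpifa1. Of all genes that averaged 1 CPM or more in these libraries, 36.8% had this pattern, and because the groups were set by 2 tissue markers the pattern is given without a test. Scgb1a1 read 1 to 14 counts in liver-content libraries, with a median of 0.445 CPM against 2287 CPM in lung-content libraries. Scgb3a2 read 0 to 15 counts there, Cxcl15 0 to 6, Sec14l3 0 to 5, Scgb3a1 0 to 4, and Reg3g 0 or 1. A liver-content library labelled dead heterozygous placebo liver had the highest counts of all 3 secretoglobins, 14 of Scgb1a1, 15 of Scgb3a2 and 4 of Scgb3a1, beside 1 count of Sftpc. The counts of Scgb1a1 and Scgb3a2 thus were nearly equal in that library, whereas Scgb3a2 was from 0.336 to 0.711 of Scgb1a1 in the lung-content libraries.

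Cyp2f2 is the member present in both tissues. This cytochrome P450 metabolises naphthalene in club cells and is also made by hepatocytes near the portal vein. Its level in lung-content libraries ran from 134 to 529 CPM, with a median of 242. In liver-content libraries of live pups it was 110 and 47.2 CPM in those labelled WT and heterozygous placebo lung, and 18.8 and 135 CPM in those labelled WT and heterozygous NAC liver. In liver-content libraries of dead pups it was 36.7 CPM (heterozygous NAC lung), 25.2 (null NAC lung), 42.1 (heterozygous placebo liver) and 36.5 CPM (null NAC liver). The 4 libraries of dead pups fell between the lowest and the highest live library, and the highest liver-content value met the lowest lung-content value. Dead against live differed by a log2 fold change of -1.05 (SE 0.52, n = 8 libraries, edgeR adjusted p = 0.78), and NAC against placebo by -0.19 (SE 0.53, adjusted p = 1). In liver-content libraries edgeR called 0.0% of 12993 genes in either comparison, with 702 and 260 genes at an unadjusted p under 0.05 and 45 and 1 called by DESeq2. The other 7 genes did not reach a mean of 1 CPM in liver-content libraries and were not tested there.

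NAC was compared with placebo over the 7 lung-content libraries with edgeR's quasi-likelihood test, pup group being a term, which rests on the pairs of live WT, live heterozygous and dead heterozygous pups. With NAC the secretoglobin Scgb3a2 and the antibacterial lectin Reg3g were higher, and the naphthalene-metabolising Cyp2f2 and the lipid-binding Sec14l3 were lower, whereas the main club cell product Scgb1a1 was level. Bpifa1 did not reach a mean of 1 CPM, so 7 of the 8 genes were tested, and these 4 passed an adjusted p of 0.05. The background was large, since 25.6% of 13990 genes passed, 14.4% higher and 11.3% lower with NAC. That background depended on single libraries, since the 3584 genes called became 1859 or 1932 without the live WT NAC or placebo library, and 1324 or 1098 without the live heterozygous NAC or placebo library. Scaling to library size alone, in place of the TMM factors used, moved the median of all genes from -0.03 to -0.32 (log2) and the share of calls that were higher from 56.1% to 22.5%, and left 2 of the 4 genes, Cyp2f2 and Sec14l3. In a bulk sample, fewer cells of a type and less RNA per cell cannot be told apart.

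A single library bears on these calls. The lung-content library labelled dead null placebo has no NAC partner, so the pup group term keeps it out of the treatment difference. Its levels of Scgb3a2, Cyp2f2, Reg3g and Sec14l3 lay within the range of the 3 NAC libraries and outside that of the 3 other placebo libraries. Without the pup group term, so that it counts as placebo, none of the 7 genes was called, while 2314 genes were. The adjusted p was then 0.0667 for Sec14l3, 0.0669 for Cyp2f2, 0.155 for Scgb3a2 and 0.393 for Reg3g. With that library left out as well, again 4 members were called. Over the 3584 genes called in the paired fit, this library was nearer to the NAC than to the placebo mean for 52.9%, made up of 37.7% of those higher with NAC and 72.4% of those lower. The mixed library, also labelled dead null placebo, was nearer to the NAC mean for 18.0%, with 7.37% and 31.6% in the same order. Its genotype, vital status and labels cannot be told apart.

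Scgb1a1, the main secretoglobin of club cells, read 2305 CPM (live WT), 1307 (live heterozygous) and 2424 CPM (dead heterozygous) with NAC. With placebo it read 2628, 2150 and 2287 CPM in the same pup groups, 1817 CPM in the lung-content null library and 1447 CPM in the mixed library. The groups overlapped, and the value of live heterozygous pups given NAC stood lowest. That library also held the fewest counts and 26.2% of reads from the ribosomal RNA gene Rn45s. The fitted log2 fold change was 0.01 (SE 0.14, 95% interval -0.30 to 0.33, adjusted p = 0.96).

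Scgb3a2, a secretoglobin that marks airway secretory cells from early in development, read 1214 CPM in live WT, 930 in live heterozygous and 1193 CPM in dead heterozygous pups with NAC. Placebo libraries read 969, 838 and 769 CPM in that order, the lung-content null library 1141 CPM and the mixed library 413 CPM. NAC was higher within each of the 3 pairs, by 1.25, 1.11 and 1.55 times in CPM, although the live WT placebo value lay above that of live heterozygous NAC. The fitted log2 fold change was 0.65 (SE 0.13, 95% interval 0.37 to 0.94, adjusted p = 0.00883). It lost the call without the library labelled live heterozygous placebo liver (adjusted p = 0.0552).

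Scgb3a1, a secretoglobin of the larger airways, spread most among the secretoglobins, 12.8 times from the lowest to the highest lung-content library. With NAC it read 51.2 CPM (live WT), 4.84 (live heterozygous) and 47.5 CPM (dead heterozygous), and with placebo 19.6, 27.5 and 29.6 CPM. The null library of lung content was highest at 62.0 CPM, and the mixed library read 8.14 CPM. Live WT and dead heterozygous pups were higher with NAC and live heterozygous pups lower, and the fitted log2 fold change was 0.37 (SE 0.56, adjusted p = 0.657). Without the library labelled live heterozygous NAC lung it was 1.25 (adjusted p = 0.0101), and without its placebo partner likewise 1.25 (adjusted p = 0.0192).

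Cyp2f2 read 242, 134 and 240 CPM with NAC in live WT, live heterozygous and dead heterozygous pups. Placebo libraries of these groups read 529, 430 and 377 CPM, the lung-content null library 204 CPM and the mixed library 323 CPM. All 3 NAC libraries were below all 3 of their placebo partners, and the null library fell among the NAC libraries. The fitted log2 fold change was -0.87 (SE 0.17, 95% interval -1.24 to -0.49, adjusted p = 0.00856). Leaving out the live heterozygous NAC library gave an adjusted p of 0.054, and leaving out its placebo partner 0.0636.

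Sec14l3, a member of a family of lipid-binding and transfer proteins made in airway epithelium, read 340, 181 and 555 CPM with NAC in the same order. With placebo it read 969, 915 and 846 CPM, and it read 407 CPM in the lung-content null library and 634 CPM in the mixed library. As for Cyp2f2, the NAC libraries lay wholly below their placebo partners, at 0.351, 0.198 and 0.656 of the partner's CPM. The fitted log2 fold change was -1.20 (SE 0.24, 95% interval -1.73 to -0.66, adjusted p = 0.00982), and this was the member whose call held whichever library was left out.

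Reg3g, a C-type lectin that kills Gram-positive bacteria, read 30.3 CPM in live WT, 4.97 in live heterozygous and 39.1 CPM in dead heterozygous pups with NAC. Placebo libraries read 7.03, 7.74 and 13.7 CPM, the lung-content null library 31 CPM and the mixed library 1.86 CPM. The NAC library was higher in 2 of 3 pairs in CPM, and in live heterozygous pups it was the lowest of the 7. The fitted log2 fold change was 1.41 (SE 0.41, 95% interval 0.48 to 2.35, adjusted p = 0.0363). The call was lost with DESeq2 (adjusted p = 0.163), with library size alone (0.0855), when only genes averaging 10 CPM or more were tested (0.0524) and without either live WT library (0.19 without NAC and 0.167 without placebo) or the dead heterozygous NAC library (0.0515).

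Bpifa1, a secreted defence protein of the upper airway, was close to absent. Its counts ranged from 0 in the lung-content null library to 15 in live WT pups given placebo, with a highest level of 1.27 CPM, and it read 0 counts in each of the 8 liver-content libraries. At this depth no difference between groups could be detected.

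Cxcl15, a chemokine of lung epithelium that attracts neutrophils, went in different directions in the pup groups. With NAC it read 533 CPM in live WT, 566 in live heterozygous and 2043 CPM in dead heterozygous pups. With placebo it read 1193, 907 and 1114 CPM, with 1196 CPM in the lung-content null library and 663 CPM in the mixed library. Both live NAC libraries were the lowest of the 7 and the dead NAC library was the highest. Summed alveolar type 2 markers had the same directions. They read 4350 CPM with NAC against 9880 with placebo in live WT pups, and 3688 against 7345 CPM in live heterozygous pups. In dead heterozygous pups they read 9458 against 7871 CPM. The part of these cells in the level of Cxcl15 was not tested. The fitted log2 fold change was -0.04 (SE 0.29, 95% interval -0.69 to 0.61, adjusted p = 0.925). With the dead heterozygous pair broken by leaving out its placebo library it was -0.53 (adjusted p = 0.019), and leaving out its NAC library also gave -0.53 (adjusted p = 0.0217). The NAC difference in dead pups exceeded that in live pups by 1.31 on the log2 scale (SE 0.36, edgeR adjusted p = 0.379 for the interaction, in a fit over the 7 lung-content libraries that was added after seeing the data). That fit had no pup group term, so the lung-content null library counted as dead placebo in it. None of the 7 genes tested passed for that interaction, which called 1 of 13990 genes.

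**Figure D2:**
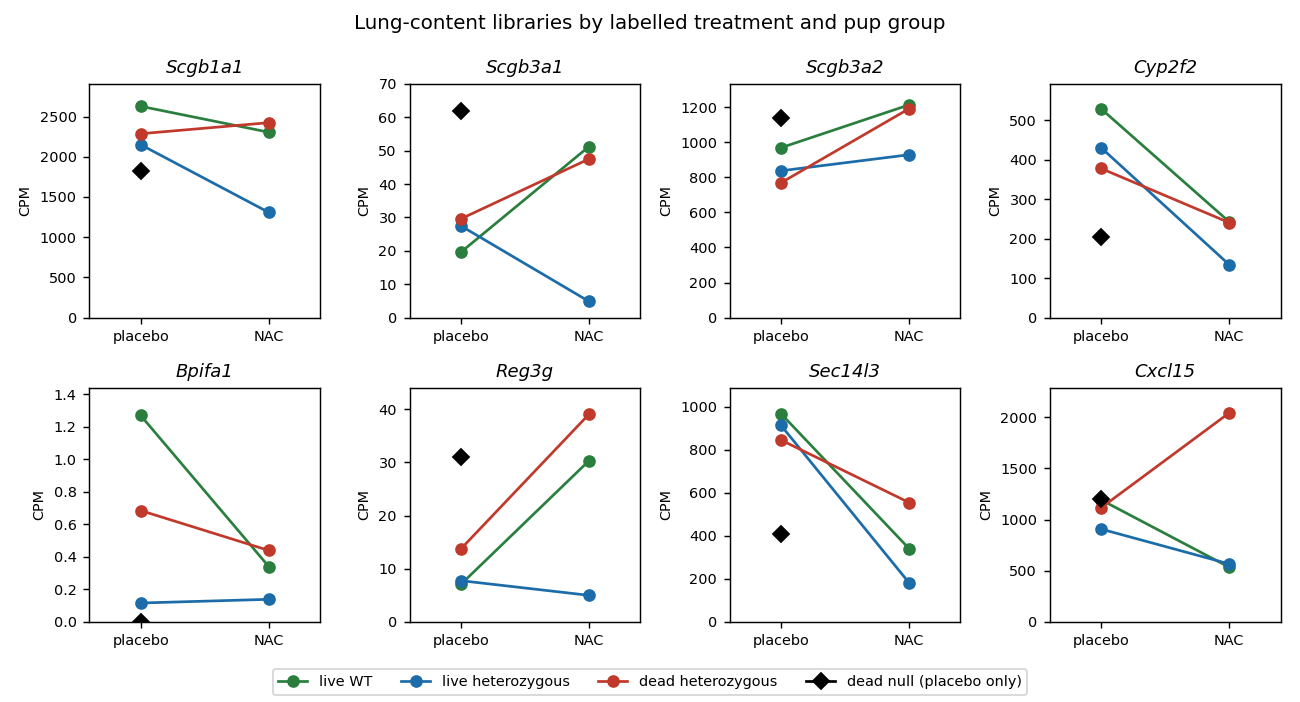
CPM of the 8 genes in the 7 lung-content libraries, with placebo at the left and NAC at the right of each panel, a line joining the 2 libraries of a pup group and a diamond for the dead null placebo library. Lines fall in all 3 pup groups for Cyp2f2 and Sec14l3 and rise in all 3 for Scgb3a2, while those of Cxcl15 fall in live pups and rise in dead heterozygous pups, and each panel has its own scale from 0.

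Ratios of counts within a library do not depend on the scaling between libraries. Cyp2f2 was 0.105, 0.102 and 0.0991 of Scgb1a1 in the NAC libraries of live WT, live heterozygous and dead heterozygous pups. In their placebo partners it was 0.201, 0.20 and 0.165, and it was 0.112 in the lung-content null library and 0.223 in the mixed library. Sec14l3 over Scgb1a1 was 0.148, 0.139 and 0.229 with NAC and 0.369, 0.425 and 0.370 with placebo, against 0.224 in the null library and 0.438 in the mixed one. Scgb3a2 over Scgb1a1 went the other way, with 0.527, 0.711 and 0.492 for NAC and 0.369, 0.390 and 0.336 for placebo. For that ratio the null library gave 0.628 and the mixed library 0.285. In each of these 3 ratios the NAC libraries were apart from the 3 paired placebo libraries, and the 2 libraries of null pups given placebo stood on opposite sides. These 3 genes were already called over the same libraries, so their ratios are no separate test. The ratios of Reg3g, Scgb3a1 and Cxcl15 to Scgb1a1 overlapped between NAC and paired placebo libraries. For Reg3g, also called, they were 0.0038 to 0.0161 with NAC and 0.0027 to 0.0060 with placebo. Sec14l3 over Cyp2f2 ran from 1.35 to 2.31 with overlap of NAC and placebo.

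**Figure D3:**
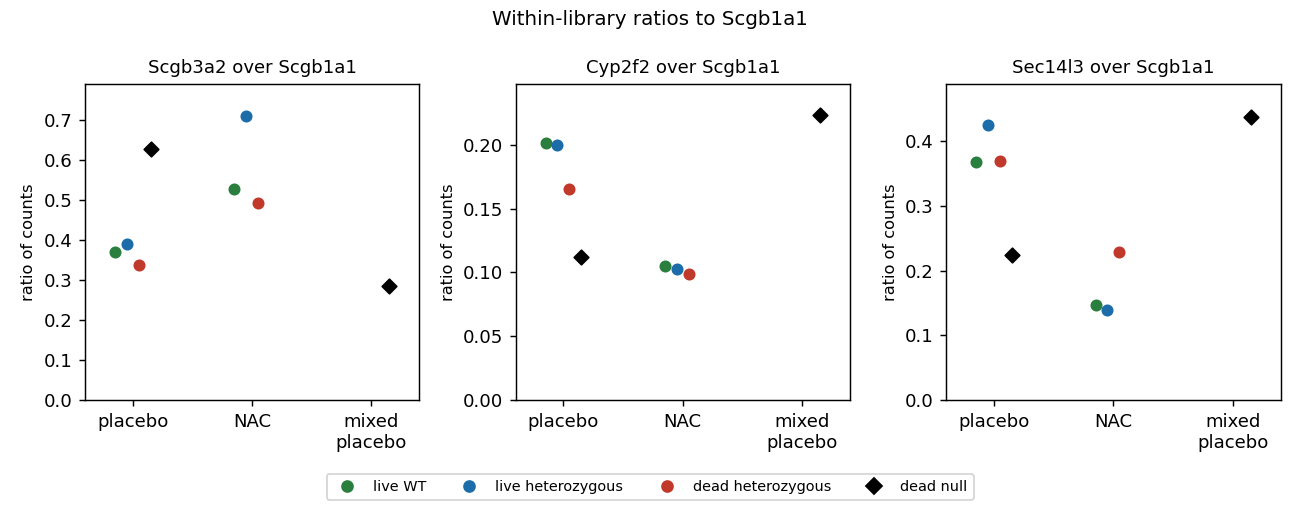
Counts of Scgb3a2, Cyp2f2 and Sec14l3 divided by those of Scgb1a1 in the same library, for 4 placebo and 3 NAC lung-content libraries and the mixed placebo library, each point being 1 library. The dead null placebo library of lung content lies near the NAC libraries, from 0.112 for Cyp2f2 to 0.628 for Scgb3a2, and the mixed library near the other placebo libraries.

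Over the 7 lung-content libraries the members did not vary as 1 group. Pearson's r of log2(CPM + 1) was highest between Cyp2f2 and Sec14l3 (0.95), followed by Scgb3a1 and Reg3g (0.86). It was lowest between Scgb3a2 and Cyp2f2 (-0.42). These values describe 7 libraries that share the NAC and placebo labels and differ in depth. The libraries also differ in the share of counts from Rn45s, 4.05 to 26.2%, for which CPM is not adjusted. The 5 other genes whose log2 level was most like the mean standardised level of the 8 members, among 9618 averaging 10 CPM or more, were Phf1 (r = 0.99), Nfkb1 (0.99), Epdr1 (0.99), Taf10 (0.98) and Naa25 (0.98). Nfkb1, a subunit of the transcription factor NF-kappa-B, ranged from 74.3 to 124 CPM. It was lowest in the library with the largest Rn45s share and highest in that with the smallest. The part of the Rn45s share in these likenesses was not tested.

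Among 24 other club cell genes, 23 were tested for NAC against placebo, of which 7 rose, 3 fell and 13 did not pass, with a median log2 fold change of 0.28 against -0.03 over all genes. The share called was 43.5%, against 25.6% of all genes tested (14.4% higher and 11.3% lower). Under library size alone 5 rose and 4 fell. Pon1, a paraoxonase, rose by 1.73 (SE 0.20, adjusted p = 0.00141) and read 44.3, 27.4 and 58.4 CPM with NAC against 22, 11.4 and 13.8 CPM with placebo in live WT, live heterozygous and dead heterozygous pups. Retnla, a resistin-like secreted protein, rose by 1.67 (SE 0.27, adjusted p = 0.00518). Por, the reductase that passes electrons to cytochrome P450 enzymes, rose by 1.62 (SE 0.15, adjusted p = 0.00055), from 151, 128 and 124 CPM to 430, 283 and 320 CPM. In each pair Por was thus higher with NAC while the P450 Cyp2f2 was lower. The lung-content null library read 269 CPM of Por, 60.5 of Pon1 and 209 of Retnla, above all 3 of the other placebo libraries for each gene.

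Of 20 mucous and serous secretory genes 13 were tested, of which 1 rose and 5 fell (46.2% called, against 25.6% of all genes), with a median of -0.26. Muc5ac, a gel-forming mucin, fell by 2.27 (SE 0.59, adjusted p = 0.0256). It read 0.138 to 0.679 CPM with NAC, 2.03 to 4.27 CPM in the paired placebo libraries and 1.68 CPM in the lung-content null library. The value of 0.138 CPM, in live heterozygous pups given NAC, was below the level of 3 counts, 0.4145 CPM in that library. Spdef, a factor of goblet cell differentiation, rose by 1.53 (SE 0.47, adjusted p = 0.0438) at a level of 0.571 to 3.32 CPM, a call that library size alone did not make. Bpifb5, a relative of Bpifa1, fell by 1.20 (SE 0.26, adjusted p = 0.0136).

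Of 20 airway fate regulators 19 were tested, of which 5 rose and 1 fell, with a median of 0.23. The share called, 31.6%, was near the 25.6% of all genes, while library size alone gave 4 and 2 with a median of -0.05. Cebpd, a C/EBP transcription factor, rose by 2.37 (SE 0.15, adjusted p = 0.000158), from 50.6, 31.8 and 64.6 CPM with placebo to 196, 136 and 301 CPM with NAC, and it read 137 CPM in the lung-content null library. The receptor Notch2 rose by 1.30 (SE 0.18, adjusted p = 0.00287). Jag2, a Notch ligand, rose by 1.19 (SE 0.16, adjusted p = 0.00279). Notch signalling is known to favour secretory over ciliated fate in the airway.

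Of 16 epithelial defence genes 8 were tested, of which 4 rose and none fell (50% called, against 25.6% of all genes), with a median of 0.30. These were S100a9 (0.90, SE 0.14, adjusted p = 0.00475), Pglyrp1 (0.87, SE 0.22, adjusted p = 0.0213), S100a8 (0.81, SE 0.15, adjusted p = 0.00744) and Lcn2 (0.72, SE 0.15, adjusted p = 0.0109). Library size alone called S100a8 and S100a9 of these. All 4 are also made by neutrophils, and S100a8 and S100a9 stand in the neutrophil list too. Neutrophil markers rose in 4 of 6 tested, among them the granule genes Mpo by 2.50 (SE 0.44) and Ngp by 1.01 (SE 0.16). Their summed level was 224 to 311 CPM with NAC, 158 to 183 CPM in the paired placebo libraries and 135 CPM in the null library, with none of the 7 markers at 0 throughout a group. The part of neutrophils in the levels of the defence genes was not tested.

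Lists of markers of other cells were tested for NAC against placebo in the same fit. Of 10 multiciliated cell markers 1 passed (10%, against 25.6% of all genes), Tppp3, a tubulin-binding protein, which fell by 1.34 (SE 0.18). The median log2 fold change of the 10 was 0.03, while their summed level was 167 to 264 CPM with NAC, 333 to 389 CPM in the paired placebo libraries and 181 CPM in the null library, so that the median and the sum differ in direction. Within these sums Tppp3 alone read 53.4 to 97.3 CPM with NAC and 189 to 217 CPM in the paired placebo libraries. The lung-content null placebo library read 62.4 CPM of Tppp3, within the NAC range. The sums are CPM, whereas the median is TMM-scaled and became -0.25 with library size alone. Alveolar type 2 markers fell in 3 of 8 tested (Etv5, Slc34a2 and Lpcat1), with a median of -0.39 and overlapping sums of 3688 to 9458 CPM with NAC, 7345 to 9880 CPM in the paired placebo libraries and 6709 CPM in the null library. For alveolar type 1 markers, 1 of 7 rose (Aqp5) and 2 fell (Akap5 and Rtkn2), with sums of 1868 to 3397 CPM with NAC, 3473 to 4796 CPM in the paired placebo libraries and 3630 CPM in the null library. Library size alone did not call Aqp5. Hepatocyte markers rose in 2 of 7 tested, Fgb and Alb, of which Alb was also used to set the content groups. Alb read 80.6, 117 and 41.2 CPM with NAC in live WT, live heterozygous and dead heterozygous pups. With placebo it read 16.8, 135 and 10.5 CPM in that order. The sums of hepatocyte markers overlapped, at 65.8 to 186 CPM with NAC, 34.5 to 261 CPM in the paired placebo libraries and 106 CPM in the null library. None of the 8 was at 0 throughout a group. Calca (neuroendocrine) was the 1 of 3 tested in its list that rose. It read 2.74 to 5.99 CPM with NAC, but was highest, at 7.88 CPM, in the null placebo library. Col2a1 (airway cartilage) likewise was 1 of 3 and rose from 0 to 0.808 CPM in the paired placebo libraries to 1.58 to 3.29 CPM with NAC. Of these placebo values, 0 (dead heterozygous) and 0.254 CPM (live WT) were at or below 3 counts. None of the 2 basal, 1 thymus and 5 heart muscle markers tested passed, no oesophagus marker reached 1 CPM, and their sums were at most 4.76, 3.35, 580 and 3.62 CPM in the NAC and paired placebo libraries. Library size alone called 3 of the heart muscle markers lower. The part of these cells in the levels of the 8 genes was not tested.

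Dead was compared with live pups over the 7 lung-content libraries with treatment as a term, and the dead pups were also younger at harvest. None of the 7 genes tested passed, and 0.0% of 13990 genes did, with 508 genes at an unadjusted p under 0.05 and 19 called by DESeq2. The largest fitted log2 fold change was that of Reg3g, 1.52 (SE 0.50, 95% interval 0.39 to 2.65, adjusted p = 1). Dead pups read 39.1, 13.7 and 31 CPM of Reg3g and live pups 30.3, 4.97, 7.03 and 7.74 CPM, so that the groups overlapped. Scgb3a1 differed by 1.00 (SE 0.57) and Cxcl15 by 0.93 (SE 0.27), both with an adjusted p of 1. The dead Cxcl15 values of 2043, 1114 and 1196 CPM overlapped the live value of 1193 CPM. Scgb1a1, Scgb3a2, Cyp2f2 and Sec14l3 differed by -0.22 to 0.20, and the interval of Scgb1a1 was -0.29 to 0.53. In the 4 other secretory lists no gene was called among the 23, 13, 19 and 8 tested, and their medians were 0.15, 0.04, 0.14 and 0.19 against 0.00 over all genes.

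**Figure D4:**
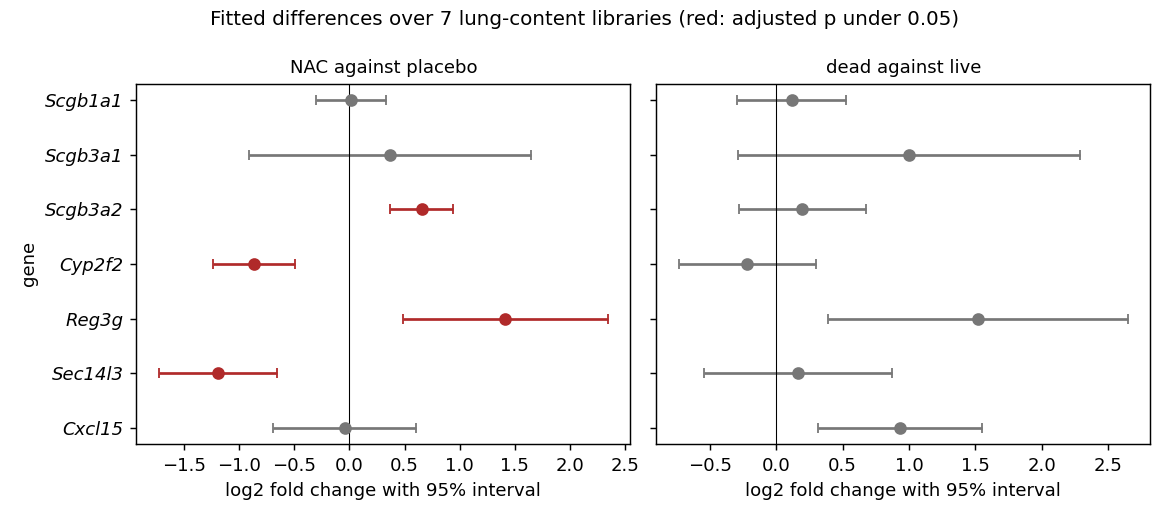
Fitted log2 fold change of the 7 genes tested, with its 95% interval, for NAC against placebo at the left and dead against live at the right, over 7 lung-content libraries. Red marks the 4 genes with an adjusted p under 0.05, which lie at 0.65 (Scgb3a2), -0.87 (Cyp2f2), 1.41 (Reg3g) and -1.20 (Sec14l3) in the comparison of NAC with placebo, and none was called for dead against live.

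Genotype could be compared among live pups, and vital status among heterozygous pups, each with treatment held as a term and 4 libraries carrying the difference. Live heterozygous against live WT gave a log2 fold change between -0.86 (Reg3g, SE 0.51) and 0.13 (Cxcl15, SE 0.34), with an adjusted p of 0.999 for each of the 7 genes. Scgb1a1 differed by -0.22 (95% interval -0.61 to 0.17) and Scgb3a1 by -0.79 (95% interval -2.36 to 0.79). Dead against live heterozygous pups gave 1.56 for Reg3g (SE 0.51), 1.03 for Scgb3a1 (SE 0.67), 0.96 for Cxcl15 (SE 0.35) and 0.55 for Sec14l3 (SE 0.29), with adjusted p from 0.932 to 0.958 over the 7 genes. Scgb1a1, Cyp2f2 and Scgb3a2 differed by 0.29, 0.12 and -0.08. In both comparisons edgeR called 0.0% of 13990 genes, with 309 and 505 genes at an unadjusted p under 0.05 and 6 and 22 called by DESeq2. The null genotype was not compared, since its lung-content library is the only one and it received placebo.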

How the data were processed

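Stranded mRNA libraries came from pooled RNA, 16 in all, each of 1 pup group, treatment and tissue label. The authors trimmed adapters, aligned the reads to the Ensembl mouse genome B38 with the Omicsoft Sequence Aligner and deposited an estimated count for each gene symbol, with no normalization. The submitters' processing notes name mm10, R 4.0.3 and edgeR 3.30.3. The annotation release and the use of strand are not given in the sources used here. Estimated counts were rounded to whole numbers. Of 25054 entries, 5499 were 0 in every library, and 962 entries that share 329 symbols were kept apart.

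Levels are CPM of the library total. Differences were tested with edgeR 4.0.16 (R 4.3.3), TMM factors, glmQLFit and glmQLFTest, on genes averaging 1 CPM or more in the libraries fitted, with Benjamini-Hochberg adjusted p under 0.05. SE are from the quasi-likelihood F statistic. DESeq2 1.42.0 and other scalings, filters, terms and left-out libraries were alternatives. The fits were first tested on simulated data. Tables and plots were made in Python 3.11.15 with pandas 2.3.3, numpy 2.4.6 and matplotlib 3.10.9. Counting error alone gives a floor of 3 counts, and no ratio was taken against it. Fitted fold changes use every library, so those of Muc5ac and Col2a1 rest in part on values at or below that floor.

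The members and lists were chosen with earlier results of these data known. The text names the 8 members, for each other list at most 3 called genes with the largest change per comparison, and the 5 genes most like the members. Lcn2 was named beyond this rule after its value was seen. Groups follow the labels for pups and treatment and marker content for tissue, and no library was moved between labels. Symbols were matched to GENCODE M21 for positions and exon lengths, which add up every annotated exon. Labels carry no replicate numbers, and the pairing of NAC and placebo libraries is by pup group.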

Additional observations from a re-analysis of the deposited data

Results flagged for a closer look

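Cxcl15 went in opposite directions in live and dead pups of lung content. The NAC library was lower than the placebo library in both live pup groups, by -1.16 (WT) and -0.68 (heterozygous) on the log2 scale of CPM, and higher in dead heterozygous pups, by 0.87. The interaction fit gave an adjusted p of 0.379.

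Scgb1a1 likewise had a log2 ratio of NAC to placebo of -0.19 and -0.72 in live WT and live heterozygous pups and 0.084 in dead heterozygous pups. These ratios are of CPM without TMM factors. In the same interaction fit, with TMM factors, its NAC difference was -0.052 in live and 0.23 in dead pups. The edgeR adjusted p of its interaction was 0.788.

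Among the 4 lung-content libraries of live pups, the Reg3g level of WT pups given NAC, 30.3 CPM, stood apart from the others, with a gap of 0.891 of the whole range. Among the 4 liver-content libraries of live pups, the library labelled heterozygous NAC liver stood apart for Cxcl15, with a gap of 0.979 of the range, on 6 counts against 1 in each of the others. By chance about 1 in 20 groups is flagged in this way.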

How the results depend on the processing

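The 7 genes tested had at least 35 counts in each lung-content library, and 1 library per pup group and treatment left 2 residual degrees of freedom in the comparison of NAC with placebo. For that comparison library size alone called 2 of the 8 genes, an added limit of 1 on the absolute log2 fold change left 2 (of 1381 genes in all), and the fit without a pup group term called 0 (of 2314 genes). Leaving out 1 library at a time gave 1098 to 4178 called genes and 3 to 5 called members, with a log2 fold change of -0.46 to 1.25 for Scgb3a1, -0.066 to 0.16 for Scgb1a1 and -0.53 to 0.36 for Cxcl15. The count of genes fell below 2000 without any 1 of the 4 live libraries (1859 and 1932 without WT NAC and placebo, 1324 and 1098 without heterozygous NAC and placebo). The difference of Scgb1a1 also turned, to -0.27 with library size alone and -0.070 with genes at 10 CPM or more, and that of Cxcl15 to 0.081 without the pup group term and 0.21 when the null library was left out as well, an alternative chosen after seeing the data. None of these turned values had passed the test.

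For dead against live, leaving out 1 library at a time called 0 genes and gave -0.40 to 0.48 for Sec14l3 and -0.067 to 0.35 for Scgb3a2. Library size alone turned live heterozygous against WT to -0.29 for Scgb3a2 and -0.20 for Cxcl15, and dead against live heterozygous to 0.12 for Scgb3a2. DESeq2 called 19 genes for dead against live, 6 for live heterozygous against WT and 22 for dead against live heterozygous, and in liver-content libraries 1 for NAC and 45 for dead against live. Testing every gene with a count gave 1, 7 and 13 in the first 3 of these and 1 for dead against live in liver-content libraries. None of the 8 genes was called in these 5 comparisons under any alternative run. Leaving Rn45s out of the library size raised the median level of Scgb3a2 from 969 to 1259 CPM and moved the other 7 by less than 1 SD. The cause of these shifts was not tested.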
